A study of Mus musculus with 16 samples.

Results

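The comparison set mouse embryonic stem cells harvested 2 h after the ERK pathway was switched on (2h) against the same line before induction (0h). It used 4 libraries of each group, 8 of the 16 in the series, and every gene with enough reads to be tested, which was 12215 of 52636 gene identifiers. The cells were of the line CRAFR26, which carries a c-RAF kinase construct that 4-hydroxytamoxifen (4OHT) activates, and came from 2 clones of it, clone 4 and clone 8, with 2 replicate cultures of each clone per group. They were grown on gelatine in N2B27 medium with LIF, the GSK3 inhibitor CHIR99021 and the MEK inhibitor PD0325901. In both groups the MEK inhibitor had been replaced for 48 h by 250 nM of PD173074 (PD17), which blocks FGF receptors. The 2h cultures then received 250 nM 4OHT for 2 h, and the 0h cultures received none. Cultures given only the vehicle of 4OHT, or 4OHT without the construct, were not analysed here, so the drug and the kinase cannot be told apart. All cultures descend from 1 line, and the labels do not say whether replicates were grown on separate days, so p-values measure the spread between these cultures.

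ERK is the last kinase of a relay that runs from growth factor receptors through RAS, RAF and MEK. It phosphorylates transcription factors, among them ETS family members that act with SRF, and these turn on immediate-early genes without new protein synthesis. Several of the induced proteins, such as Sprouty proteins and dual-specificity phosphatases, act back on the relay and limit it. In mouse embryonic stem cells the pathway is normally driven by FGF4, which the cells secrete, and it is known for moving them out of naive pluripotency. An activated RAF enters the relay below the receptor, so it can act while FGF receptors are blocked.

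Values are CPM, that is read counts scaled to a common library size with TMM factors, and they are not divided by gene length. The 8 libraries held 2172651 counts (2h, clone 4 replicate 2) to 12680303 counts (2h, clone 8 replicate 1), of which 8 very abundant gene models took 53.1 to 63.4%. A detection floor of 3 counts equalled 0.213 to 1.31 CPM depending on the library, and such floors cover counting error only. Log2 CPM correlated across genes, which are not independent replicates, with r of 0.971 to 0.990 between libraries of the same group and clone and 0.935 to 0.971 between the groups. The markers of the labelled cell type were present: Pou5f1, Sox2, Nanog, Esrrb, Zfp42 and Tdgf1 summed to 962 to 1237 CPM at 0h and 1056 to 1310 CPM at 2h.

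Within 2 h, 1390 genes were higher (11.4% of those tested) and 1182 lower (9.68%) in edgeR's quasi-likelihood test at an adjusted p under 0.05. Increases reached much further than decreases. At least 2-fold changes were seen for 179 higher genes (1.47%) and 166 lower genes (1.36%), but at least 4-fold changes for 47 and 4, and at least 8-fold changes for 23 and 0. The typical call was small: the median log2 fold change (log2FC) was 0.43 among higher and -0.59 among lower genes, against -0.015 over all genes tested. Genes with at least 2-fold changes had low 0h levels in both directions, with medians of 1.54 CPM for higher and 2.92 CPM for lower genes against 12.2 CPM over all genes tested, and the fold itself is measured from that 0h level. Every 2h library lay above every 0h library for 1078 of the tested genes (8.83%), among them 897 of the 1390 higher genes. Every 2h library lay below every 0h library for 809 (6.62%), among them 600 of the 1182 lower genes.

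Scaled by library size alone, without the composition factor, 204 genes were higher and 134 lower, and without the clone term 747 and 462. Without 0h clone 8 replicate 2, 743 genes were lower. No gene called with TMM factors and the clone term was called with the other sign under any alternative.

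**Figure D1:**
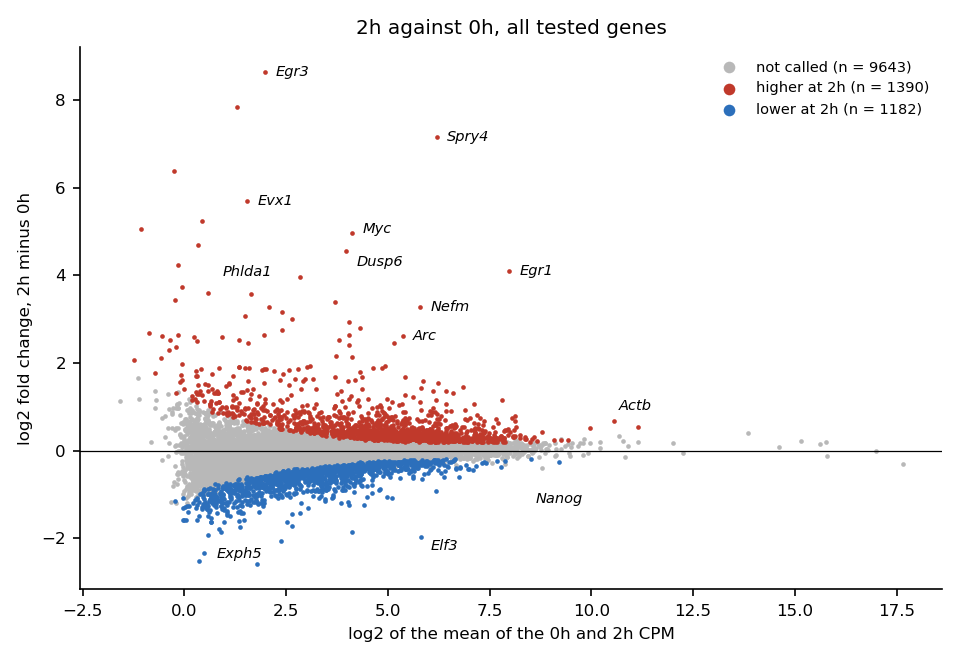
Each point is 1 of the 12215 tested genes, with the log2 of its mean level at 0h and 2h (CPM) on the horizontal axis and its log2FC on the vertical axis. The 1390 higher genes (red) extend upward to Egr3 and Spry4, while the 1182 lower genes (blue) stay closer to the line at 0.

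Genes were named by log2FC among called genes with a mean of at least 5 CPM over the 8 libraries and groups that did not overlap within either clone. The largest increase under this naming rule was that of Spry4, an inhibitor of receptor signalling to ERK. The 0h libraries had 0.815 and 0.448 CPM in clone 4 and 1.77 and 0.962 CPM in clone 8. The 2h libraries had 154 and 150 CPM in clone 4 and 135 and 144 CPM in clone 8. The groups were far apart, with a log2FC of 7.15 (SE 0.16, adjusted p = 3.5e-27). SE here and below is the absolute log2FC divided by the square root of the test's F statistic. It is not a direct estimate of error and may be too small where reads are few, as for Spry4, with a mean count of 6.5 at 0h. Myc, the growth-promoting transcription factor, had 1.09, 0.298, 0.804 and 1.92 CPM at 0h (clone 4 replicates 1 and 2, then clone 8 replicates 1 and 2, the order used from here on). At 2h it had 21.9, 28.9, 36.2 and 48.6 CPM, so the lowest 2h value was above the highest 0h value (log2FC 4.96, SE 0.21). Dusp6 (chr10:99263231-99267489 in mm10, + strand), a phosphatase that inactivates ERK, went from 1.36, 0.597, 1.45 and 1.6 CPM to 31.3, 32.0, 27.6 and 30.0 CPM. All 4 induced cultures reached nearly the same level of it (adjusted p = 1.4e-19, log2FC 4.54, SE 0.18).

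The other 12 of the 15 largest increases under the rule came from several kinds of gene. Egr1, Fos, Nab2 and Id3 encode transcription regulators, Dusp4 another phosphatase of ERK, and Phlda1 a pleckstrin-homology protein. Slc39a14 (chr14:70303469-70351425, - strand) encodes a zinc and manganese importer and went from 1.36, 1.34, 2.25 and 3.21 CPM to 25.1, 27.2, 22.6 and 21.6 CPM (log2FC 3.4, SE 0.17). Nefm, a neurofilament subunit, Trh, the precursor of thyrotropin-releasing hormone, and Arc, a protein of neuronal synapses, are best known from neurons. Arc went from 8.96, 9.85, 11.4 and 15.1 CPM to 72.9, 63.9, 71.0 and 78.0 CPM (log2FC 2.62, SE 0.11). Hs3st3b1 adds sulfate to heparan sulfate, and Cavin1 coats caveolae. Trh went from 0.815, 1.04, 0.965 and 0.855 CPM to 9.19, 16.2, 7.18 and 6.18 CPM, a rise in each culture but an uneven one (log2FC 3.16, SE 0.25). In all 15 genes every 2h library lay above every 0h library, with changes of at least 5.73-fold, which describes the selection, since the rule asked for large changes and no overlap within clones.

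**Figure D2:**
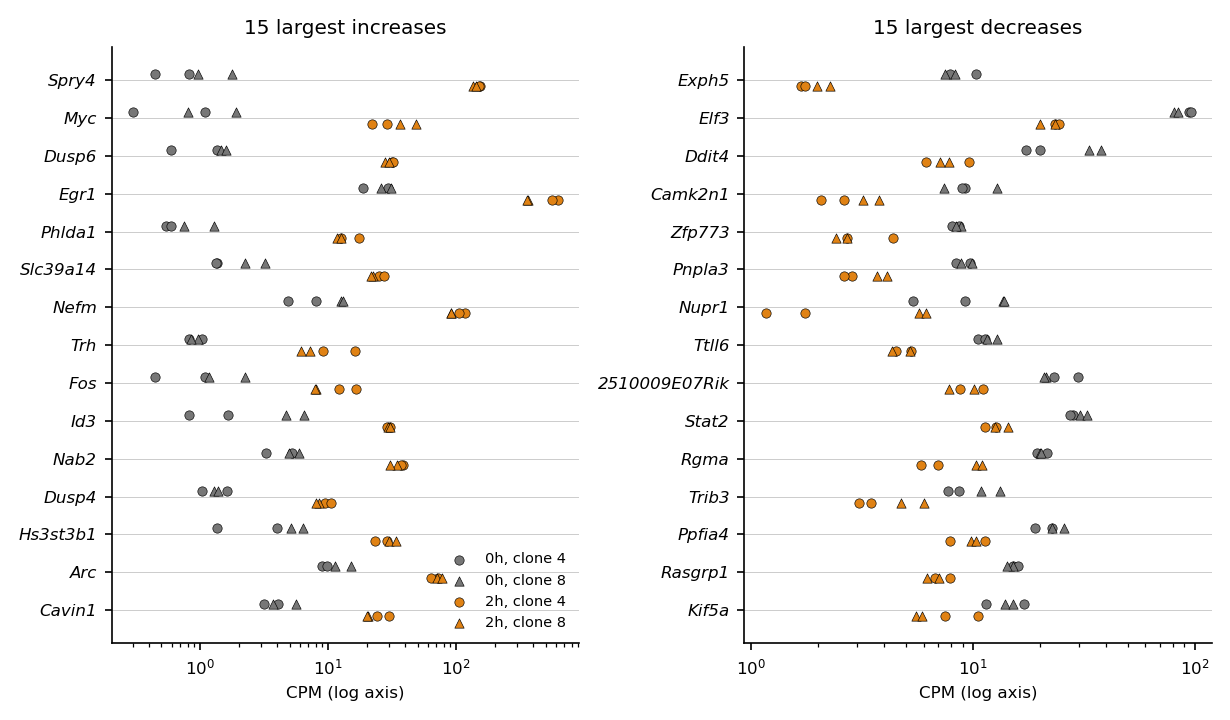
CPM on a log axis in each of the 8 libraries (circles clone 4, triangles clone 8; grey 0h, orange 2h) for the 15 largest increases (left) and decreases (right) under the naming rule. The 2 colours do not overlap for any gene on the left, and on the right they overlap for Nupr1.

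In 4 called genes no 0h library held a read, so the change can at most be given as a lower bound, the 2h mean against the mean floor of 3 counts in each 0h library. Egr3, a zinc finger factor of the Egr family, was at least 15.4-fold higher, with 11, 11.8, 4.98 and 4.05 CPM at 2h. Soga3 was at least 9.56-fold higher. Rrad, a small GTPase of the RAS family, had 22, 5, 15 and 5 reads (1.66 ± 1.09 CPM) at 2h. Its bound of 3.22-fold holds for the 2h mean but not for each library. The potassium channel gene Kcna1 had 3 to 6 reads in each 2h library (0.647, 2.63, 0.253 and 0.284 CPM), too few for a bound that does not rest on 2h clone 4 replicate 2. No called gene was without reads in all 2h libraries. Evx1, a homeobox gene of the early mesoderm, went from 0.272, 0.149, 0 and 0 CPM to 8.29, 9.20, 3.8 and 1.70 CPM (adjusted p = 1.2e-10). Its antisense neighbour Evx1os went from 0.272 CPM in 1 of the 0h libraries and 0 in the others to 2.66 ± 1.93 CPM (adjusted p = 1.2e-06), and no fold is given for either, as no 0h library held more than 1 read of them. Their exons overlap on opposite strands and the strand setting of the counts is not given in the sources used here, so reads of the 2 genes cannot be told apart.

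Most feedback inhibitors of the pathway were higher. Of 22 listed, 20 were tested, 13 were higher (65%, against 11.4% of all genes tested) and 1 was lower (Dusp10, a call lost in 4 of the 8 fits without 1 library), 6 were not called, and the median log2FC of the tested members was 0.72 against -0.015 over all genes tested. The phosphatases split by member. Dusp2, Dusp4, Dusp5 and Dusp6 rose at least 4-fold, while Dusp1, which acts on several MAP kinases, went from 25.5 ± 8.15 to 51.7 ± 11.4 CPM (adjusted p = 5.2e-11, log2FC 1.03, SE 0.09). Dusp5, a nuclear phosphatase of ERK, went from 4.62, 4.62, 4.02 and 5.02 CPM to 29.8, 25.4, 16 and 15.6 CPM, with clone 4 above clone 8 at 2h (log2FC 2.15, SE 0.19). Dusp2 went from 0.209 ± 0.0906 to 2.8 ± 1.32 CPM (log2FC 3.59, SE 0.40), and its 0h values lay under the floor. Among the Sprouty genes, Spry2 was already at 26.6 ± 5.29 CPM before induction and reached 54.8 ± 3.21 CPM (log2FC 1.07), against a log2FC of 7.15 for Spry4. Errfi1, which inhibits EGF receptors, went from 12.9 ± 2.69 to 25.9 ± 2.59 CPM (log2FC 1.03, SE 0.11).

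Most immediate-early transcription factors were higher as well. Of 30 listed, 24 were tested, 16 were higher (66.7%) and 1 was lower (4.17%), against 11.4% and 9.68% of all genes tested, with a median log2FC of 0.83. Egr1, the zinc finger factor that defines the class, had 29.6, 18.6, 25.7 and 31.1 CPM at 0h and 625, 565, 366 and 355 CPM at 2h, and clone 4 stood above clone 8 after induction. Fos went from 1.24 ± 0.748 to 11.2 ± 4.13 CPM (log2FC 3.00, SE 0.26). Its AP-1 partners Jun and Junb, chosen after their values were seen, reached 6.65 ± 1.15 CPM (log2FC 2.64) and 28.7 ± 2.07 CPM (log2FC 2.14). Nab2, a corepressor of Egr factors, went from 3.26, 5.22, 5.95 and 4.92 CPM to 38.7, 37.2, 34.5 and 30.7 CPM (log2FC 2.8, SE 0.13). Mycl was the exception, with 18.7, 18.4, 16.6 and 17.6 CPM at 0h and 14.6, 11.8, 12.7 and 12.5 CPM at 2h (adjusted p = 0.0054, log2FC -0.44, SE 0.11), so that Myc and Mycl moved in opposite directions without any overlap of their groups. Of the other early response genes, 21 of 23 were tested, 13 were higher (61.9%) and 2 lower (9.52%, near the 9.68% of all genes tested), with a median log2FC of 0.56. Phlda1 (log2FC 3.97), Arc (2.62) and Zfp36l1, which speeds the decay of AU-rich messages (2.41), led the rise. Gadd45b (log2FC -0.70) and Tob1 (log2FC -0.46), stress and antiproliferative genes, were the lower members.

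Upstream bases of 5 early genes are shown because each holds letters bound by a factor named above. Srf, Dusp5 and Zfp36 hold a CArG box, the element of SRF, Nab2 holds the Egr letters GCGTGGG and Plaur the AP-1 letters TGACTCA. They were chosen after values and matches were seen. RefSeq starts lay within 100 bases of the 5′ end of the GENCODE gene model for 6853 of the 9021 matched genes. Those of Zfp36 and Nab2 lie 1025 and 1865 bases inside their models, so these stretches are upstream of the RefSeq start only. Each run gives the 130 bases before the RefSeq start (GRCm38.p6), 5′ to 3′ on the gene's strand, with matches in capitals. Srf lies at chr17:46556163-46556292 (- strand), Dusp5 at chr19:53529015-53529144 (+), Zfp36 at chr7:28379229-28379358 (-), Nab2 at chr10:127666704-127666833 (-) and Plaur at chr7:24462353-24462482 (+).
Srf: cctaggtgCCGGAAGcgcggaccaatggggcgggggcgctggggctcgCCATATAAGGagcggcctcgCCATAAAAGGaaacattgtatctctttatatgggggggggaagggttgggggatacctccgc
Dusp5: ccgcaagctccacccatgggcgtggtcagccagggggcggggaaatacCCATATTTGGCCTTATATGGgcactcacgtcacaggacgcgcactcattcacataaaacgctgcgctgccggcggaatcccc
Zfp36: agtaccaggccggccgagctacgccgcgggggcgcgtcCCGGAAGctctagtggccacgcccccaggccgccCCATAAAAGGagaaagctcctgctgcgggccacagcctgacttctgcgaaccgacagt
Nab2: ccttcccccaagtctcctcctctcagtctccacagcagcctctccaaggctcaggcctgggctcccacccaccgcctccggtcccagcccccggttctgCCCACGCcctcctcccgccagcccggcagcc
Plaur: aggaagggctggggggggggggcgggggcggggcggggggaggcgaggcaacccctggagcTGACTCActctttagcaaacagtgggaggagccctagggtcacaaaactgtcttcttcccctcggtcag
Srf, which encodes the factor that binds CArG boxes, holds 2 of them, starting 82 and 62 bases before the start, and the ETS letters CCGGAAG 122 bases before it. It went from 26.9, 21.6, 18.3 and 20 CPM to 47.4, 49.9, 38.7 and 36.6 CPM, without overlap (adjusted p = 3.4e-10, log2FC 0.98, SE 0.09). Dusp5 holds 2 CArG boxes that abut, starting 82 and 72 bases before the start. Zfp36, another gene whose product speeds the decay of AU-rich messages, holds 1 at 58 bases and went from 3.05 ± 1.02 to 8.82 ± 1.17 CPM (log2FC 1.49). Nab2 has its match on the opposite strand, 31 bases before the start. Plaur, the urokinase receptor, has its match at 69 bases and went from 0.272, 0.448, 0.965 and 1.18 CPM to 9.71, 6.57, 6.93 and 7.95 CPM (log2FC 3.28).

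Across genes these letters were not a common feature of the response. Promoters, from 250 bases before to 50 after the start, were matched for 9021 of the 11363 protein-coding genes tested and for 105 of the 148 that rose at least 2-fold, and both strands were searched. A CArG box stood in 2 of the 105 (1.9%), in 3 of the 51 matched members of the feedback and early response lists (5.88%) and in 111 of all 9021 (1.23%). The Egr letters stood in 9.52% of the 105 and 8.74% of all, the AP-1 letters in 5.71% and 3.05%, and the cyclic AMP element TGACGTCA in 3.81% and 3.36%. The ETS letters CCGGAAG were rarer among the 105, at 6.67%, and among the promoters of genes lower by at least 2-fold, at 10.6%, than among all promoters, at 19.6%. Among genes that rose by less than 2-fold they stood in 22.7%. These 3 classes of protein-coding genes also differed in level, with median 0h values of 2.2, 2.94 and 30.6 CPM in that order. The median over all protein-coding genes tested was 13.4 CPM, and shares were not compared at equal level. A match is a description of letters, not a site in use, and no difference between these shares was tested.

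ETS factors, many of them substrates or targets of ERK, moved both ways: of 20 listed, 16 were tested, 7 were higher (43.8%) and 3 lower (18.8%), against 11.4% and 9.68% of all genes tested, with a median log2FC of 0.22. Etv4, a member of the Pea3 group, went from 5.43, 6.12, 10.6 and 8.98 CPM to 26.2, 25.4, 22.9 and 24.3 CPM (log2FC 1.6, SE 0.14). Erf, a repressor that ERK exports from the nucleus, went from 47.5 ± 9.90 to 90.9 ± 7.02 CPM (log2FC 0.97), and Etv1 from 4.09 ± 1.09 to 7.38 ± 0.619 CPM (log2FC 0.89). Elf3, an ETS factor of epithelia, fell furthest in the list, from 94.0, 96.1, 81.0 and 84.0 CPM to 23.6, 24.5, 20.1 and 23.5 CPM (adjusted p = 1.1e-15, log2FC -1.98, SE 0.11). Spic fell from 26.5 ± 6.05 to 14.6 ± 5.26 CPM (log2FC -0.80), with groups that overlap between clones but not within a clone.

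The messages of the relay itself were called about as often as genes at large. Of 35 listed members from receptor to ERK, 32 were tested, 5 were higher (15.6%, against 11.4% of all genes tested) and 3 lower (9.38%, against 9.68%), and the median log2FC was 0.05. Map2k2, which encodes MEK2, was higher (44.1 ± 5.09 to 56.3 ± 3.53 CPM, log2FC 0.35), as were Rasa2, a RAS inactivator (log2FC 0.57, a call lost without 0h clone 8 replicate 2), and Erbb3, a receptor without strong kinase activity (log2FC 0.41). Rasgrp1, an activator of RAS, fell most, from 15.2, 16, 15.1 and 14.3 CPM to 6.73, 7.88, 6.25 and 7.03 CPM (adjusted p = 2.4e-07, log2FC -1.15, SE 0.14). The scaffold Ksr1 was lower by a log2FC of -0.52. Fgfr1, the main FGF receptor of these cells, went from 81.8 ± 3.49 to 69.7 ± 6.07 CPM (log2FC -0.21, adjusted p = 0.035). Its call was lost in 5 of the 8 fits that left out 1 library (any of the 4 clone 4 libraries or 0h clone 8 replicate 2, adjusted p up to 0.14). The list had 2 higher genes without 0h clone 8 replicate 2, and 3 without 0h clone 4 replicate 2 or any of 2h clone 4 replicate 1, 2h clone 8 replicate 1 and 2h clone 8 replicate 2.

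Secreted ligands changed in both directions: of 25 listed, 14 were tested, 5 were higher (35.7%) and 3 lower (21.4%), against 11.4% and 9.68% of all genes tested, with a median log2FC of 0.09. Trh, Bmp4 and the EGF receptor ligand Hbegf were the leading increases. Bmp4 went from 1.09, 0.597, 4.18 and 3.21 CPM to 6.99, 9.63, 8.03 and 9.44 CPM (log2FC 1.75, SE 0.23), and Hbegf from 5.19 ± 0.682 to 9.65 ± 0.807 CPM (log2FC 0.90). Fgf4, the ligand that normally drives ERK in these cells, fell from 133, 113, 132 and 142 CPM to 75.5, 70.1, 96.7 and 101 CPM (adjusted p = 1.7e-06, log2FC -0.60, SE 0.08). Its groups did not overlap. Vegfa, the angiogenic factor, fell from 47.0 ± 5.12 to 22.3 ± 1.45 CPM (log2FC -1.07), and Lefty1, an inhibitor of Nodal, had a log2FC of -0.64.

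Naive pluripotency factors showed no common direction after 2 h. All 16 listed were tested, 5 were higher (31.2%) and 3 lower (18.8%), against 11.4% and 9.68% of all genes tested, and the median log2FC was 0.01. Nr0b1 (28.6 ± 2.46 to 53.7 ± 7.13 CPM, log2FC 0.89), Nr5a2 (61.6 ± 2.54 to 88.1 ± 6.38 CPM, log2FC 0.51), Klf5 (log2FC 0.62) and Zfp42 (log2FC 0.35) were higher. Prdm14, which represses FGF receptor genes, fell from 33.4, 28.3, 28.1 and 34.4 CPM to 12.2, 18, 20.9 and 20.9 CPM (adjusted p = 4.6e-06, log2FC -0.79, SE 0.12). Tfap2c was lower by a log2FC of -0.37. Nanog had 331, 298, 484 and 461 CPM at 0h and 266, 287, 396 and 425 CPM at 2h, with a larger gap between clones than between groups. Its log2FC of -0.20 (adjusted p = 0.048) passed the threshold, but the call was lost in 7 of the 8 fits that left out 1 library, in all but that without 2h clone 4 replicate 2 (adjusted p up to 0.17). Esrrb measured 259 ± 23.5 and 297 ± 50.8 CPM (log2FC 0.19, adjusted p = 0.07).

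General pluripotency factors were mostly higher: all 10 listed were tested, 7 were higher (70%, against 11.4% of all genes tested), with a median log2FC of 0.49. The 1 lower gene (10%, near the 9.68% of all genes tested) lost its call in 4 of the 8 fits without 1 library and under DESeq2. Utf1 went from 9.78, 9.10, 26.7 and 28.5 CPM to 21.5, 20.6, 50.9 and 58.4 CPM, so that the groups overlapped across clones but not within them (log2FC 1.04, SE 0.12). Lin28a, an inhibitor of let-7 maturation, had a log2FC of 1.03, Dppa2 of 0.79 and Sox2 of 0.35 (172 ± 5.51 to 221 ± 14.2 CPM). Pou5f1, which encodes OCT4, measured 126 ± 8.80 and 136 ± 6.69 CPM (log2FC 0.10, adjusted p = 0.39), with overlapping groups.

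Genes of the formative and primed epiblast, which cells express after leaving the naive state, gave 4 higher (28.6%) and 2 lower (14.3%) of 14 tested (16 listed), against 11.4% and 9.68% of all genes tested, with a median log2FC of 0.07. Foxd3 went from 9.51, 8.35, 9.49 and 8.98 CPM to 29.5, 28.5, 30.7 and 35 CPM (log2FC 1.80, SE 0.11). The neighbouring genes Zic2 and Zic5 rose in both clones from different levels: Zic2 had 42.9 and 42.7 CPM in clone 4 and 16.4 and 18.9 CPM in clone 8 at 0h, and 112, 113, 69.1 and 54.0 CPM at 2h (log2FC 1.59, SE 0.10). Zic5 had a log2FC of 1.19. Pou3f1 was higher as well (log2FC 0.91, adjusted p = 0.00085), while Sall2 was lower (log2FC -0.77, adjusted p = 0.0016). Otx2, at 2.8 ± 1.04 and 1.75 ± 0.422 CPM, was the other lower member, and its call was lost in 6 of the 8 fits without 1 library. The list had 4 lower genes without 0h clone 4 replicate 1, and 1 without 0h clone 4 replicate 2, 0h clone 8 replicate 1, 0h clone 8 replicate 2, 2h clone 4 replicate 2 or 2h clone 8 replicate 1. Fgf5 was not tested, with at most 1 read in any of the 8 libraries. Of 18 primitive endoderm genes, 9 were tested and 1 was called higher (11.1%, near the 11.4% of all genes tested). That was Sparc (log2FC 0.20, a call lost in 7 of the 8 fits without 1 library). Gata6, Sox17 and Pdgfra, which define that lineage, had at most 4, 15 and 10 reads in a library and were not tested.

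The LIF, WNT and BMP lists held 4 to 6 higher genes each and none lower, 50%, 41.7% and 40% of their tested members, against 11.4% of all genes tested. In the LIF and STAT3 pathway, which sustains naive cells, 6 of 12 tested genes were higher and 0 lower, led by the feedback inhibitors Socs3 (15 ± 1.55 to 25.2 ± 6.54 CPM, log2FC 0.80) and Socs2 (log2FC 0.65), with the STAT3 target Pim1 at a log2FC of 0.33. Of the WNT targets, 5 of 12 tested were higher and 0 lower, among them Znrf3, a feedback inhibitor (log2FC 0.45). That list had 2 higher genes without 0h clone 8 replicate 2 and 3 without 2h clone 4 replicate 1. In the BMP and SMAD list, 4 of 10 tested were higher and 0 lower. These were Id3 (log2FC 2.92, SE 0.18), Id1 (log2FC 2.46, SE 0.34), the inhibitory Smad7 (49.4, 38.2, 51.3 and 54.6 CPM to 100.5, 106, 137 and 154 CPM, log2FC 1.37) and the SMAD corepressor Tgif1 (log2FC 0.72). The other 6 tested members of that list were not called.

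The 15 largest decreases under the naming rule ranged from 2.15-fold to 4.18-fold, and genes that did not meet the rule, such as Efna4, could fall within that range too. Of the 4 genes lower by at least 4-fold, only Exph5 is among the 15. Exph5, a partner of Rab27 in vesicle transport, fell most of the 15, from 7.88, 10.3, 8.36 and 7.48 CPM to 1.68, 1.75, 2.28 and 1.99 CPM (log2FC -2.06, SE 0.19). Camk2n1, an inhibitor of CaM kinase II, fell from 9.23, 8.95, 7.40 and 12.8 CPM to 2.07, 2.63, 3.21 and 3.76 CPM (log2FC -1.72). Stat2, a transducer of interferon signals, fell from 28.2, 27.3, 30.4 and 32.6 CPM to 11.4, 12.7, 12.6 and 14.5 CPM (adjusted p = 1.6e-11, log2FC -1.23, SE 0.10). Rgma, a BMP coreceptor and axon guidance cue, had 19.5 to 21.7 CPM at 0h and 5.83, 7.01, 10.3 and 11 CPM at 2h. The remaining genes were Pnpla3, a lipase of fat droplets, Kif5a, a kinesin motor, Ttll6, which modifies tubulin, Ppfia4, a liprin, Zfp773, 2510009E07Rik, Elf3, Rasgrp1, Ddit4, Nupr1 and Trib3. Every 2h library lay below every 0h library in 14 of the 15, which the rule largely fixed by asking for no overlap within clones. The exception was Nupr1, with 5.37 to 13.9 CPM at 0h and 1.17 to 6.18 CPM at 2h.

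Ddit4, Nupr1 and Trib3 belong to the integrated stress response, in which ATF4 raises genes of amino acid supply and growth restraint. Of its 19 listed genes, 18 were tested, 1 was higher (5.56%) and 8 lower (44.4%), against 11.4% and 9.68% of all genes tested, with a median log2FC of -0.34. Ddit4, an inhibitor of mTORC1, fell from 20.1, 17.3, 33.4 and 37.8 CPM to 9.58, 6.13, 7.86 and 7.10 CPM (adjusted p = 6.7e-11, log2FC -1.85, SE 0.16). The 0h level was higher in clone 8, and the 2h levels of the clones overlapped. Trib3 fell from 10.2 ± 2.46 to 4.33 ± 1.34 CPM (log2FC -1.18) and Chac1, which degrades glutathione, from 2.72, 2.54, 5.63 and 9.51 CPM to 2.07, 1.75, 1.86 and 2.63 CPM (log2FC -1.40). Sesn2 was the higher member (54.4 ± 2.76 to 74.1 ± 10.1 CPM, log2FC 0.48). Of the lower genes, Nupr1 (log2FC -2.38 in clone 4 and -1.21 in clone 8) and Trib3 (-1.26 and -1.17) fell more in clone 4. The others fell more in clone 8, such as Chac1 (-0.38 and -1.78), Vldlr (-0.26 and -0.87) and Atf4 (-0.19 and -0.51). No listed gene was called in the test of a difference between clones given below. The list's lower genes numbered 7 to 12 and its higher genes 1 to 2 when 1 library was left out.

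Genes of ribosome biogenesis and metabolism moved by small amounts. Of 31 ribosome biogenesis factors, which MYC is known to control, 14 were higher (45.2%, against 11.4% of all genes tested) and 0 lower, with a median log2FC of 0.20. Rrs1 went from 31.8 ± 2.85 to 50.8 ± 2.67 CPM (log2FC 0.64, SE 0.09), and Ppan and Wdr43 followed with a log2FC of 0.40 each. The list had 7 higher genes without 2h clone 4 replicate 1, 8 without 2h clone 8 replicate 2 and 9 without 0h clone 8 replicate 2. Of 18 nucleotide and polyamine synthesis genes 2 were higher, of 23 cholesterol and fatty acid genes 3 were higher and 1 lower (0 without 2h clone 8 replicate 1 and 2 without 2h clone 8 replicate 2), and of 16 glycolysis genes 1 was higher (6.25%) and 3 lower (18.8%), of which 1 was left without 0h clone 8 replicate 2 or 2h clone 8 replicate 1. The shares higher, 11.1% of the nucleotide and 13% of the cholesterol list, were near the 11.4% of all genes tested, of which 9.68% were lower. When 1 library was left out, the nucleotide list had 0 to 3 higher genes and the glycolysis list 1 to 2. Insig1, a regulator of sterol synthesis, had a log2FC of 0.38. Hexokinases moved apart, with Hk2 higher (log2FC 0.31) and Hk1 lower (log2FC -0.46). Of 15 cell cycle regulators 4 were higher (26.7%) and 2 lower (13.3%), against 11.4% and 9.68% of all genes tested. Without 0h clone 4 replicate 2 the higher genes numbered 2, and the lower genes numbered 1 in 6 of the 8 fits without 1 library. Cdk6, a kinase of the G1 phase, went from 15.5, 21, 16.9 and 17.3 CPM to 35.6, 37.7, 34.3 and 35.6 CPM (log2FC 0.99, SE 0.09), whereas Cdkn1b, which encodes the inhibitor p27, had a log2FC of -0.60.

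Cytoskeletal genes, many of them classical SRF targets, were mostly higher: of 19 listed, 14 were tested, 10 were higher (71.4%, against 11.4% of all genes tested) and 0 lower, with a median log2FC of 0.41. Actb, the beta actin gene, went from 1202, 1049, 1219 and 1209.5 CPM to 1628, 1711, 1984 and 2155 CPM (adjusted p = 4.1e-07, log2FC 0.67, SE 0.09). Reads of processed pseudogenes of Actb may be counted with it. Cavin1 (log2FC 2.52), which the list includes although it coats caveolae, and Zyx, a protein of focal adhesions (3.27 ± 1.56 to 12.9 ± 0.848 CPM, log2FC 1.92), rose most. In the BCL2 family, 2 of 10 tested genes were higher (20%) and 2 lower (20%), against 11.4% and 9.68% of all genes tested, and the lower genes numbered 1 without 0h clone 4 replicate 2, 0h clone 8 replicate 2, 2h clone 8 replicate 1 or 2h clone 8 replicate 2. Pmaip1, which encodes the death-promoting protein NOXA, rose from 2.44, 4.03, 16.1 and 15.8 CPM to 21.4, 19.3, 40.0 and 44.7 CPM (log2FC 1.67, SE 0.16). The protective Bcl2l1 rose as well (16.5 ± 1.49 to 27.1 ± 1.31 CPM, log2FC 0.72), while Bmf, a death-promoting member, fell (log2FC -1.14). Epha2 was the higher member of the Eph list, at 68.4, 61.3, 54.2 and 60.6 CPM before and 206, 200, 136 and 136 CPM after induction (log2FC 1.44, SE 0.11). Efna4, a ligand of such receptors, was lower (log2FC -1.43, SE 0.27), and 1 of the 10 tested was higher (10%) and 3 lower (30%) in all, against 11.4% and 9.68% of all genes tested, with 5 lower without 0h clone 8 replicate 1.

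By difference in mean CPM, which favours abundant genes, Actb, Egr1 and Arid5b were among the 5 largest increases and Slc2a3, Elf3, Rnf213, Nanog and Fgf4 the 5 largest decreases of called protein-coding genes. Arid5b, a chromatin cofactor, went from 138, 137, 144 and 129 CPM to 284, 249, 325 and 371 CPM (log2FC 1.16, SE 0.08). Slc2a3, a glucose transporter, went from 639 ± 104 to 532 ± 25.5 CPM (log2FC -0.26, adjusted p = 0.017), a call lost without 0h clone 8 replicate 2 (adjusted p = 0.092) or 2h clone 8 replicate 1 (adjusted p = 0.08). The other 2 increases were the mitochondrial genes mt-Nd1 (log2FC 0.54) and mt-Nd2 (log2FC 0.52), whose calls were lost in 2 and 6 of the 8 fits without 1 library.

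**Figure D3:**
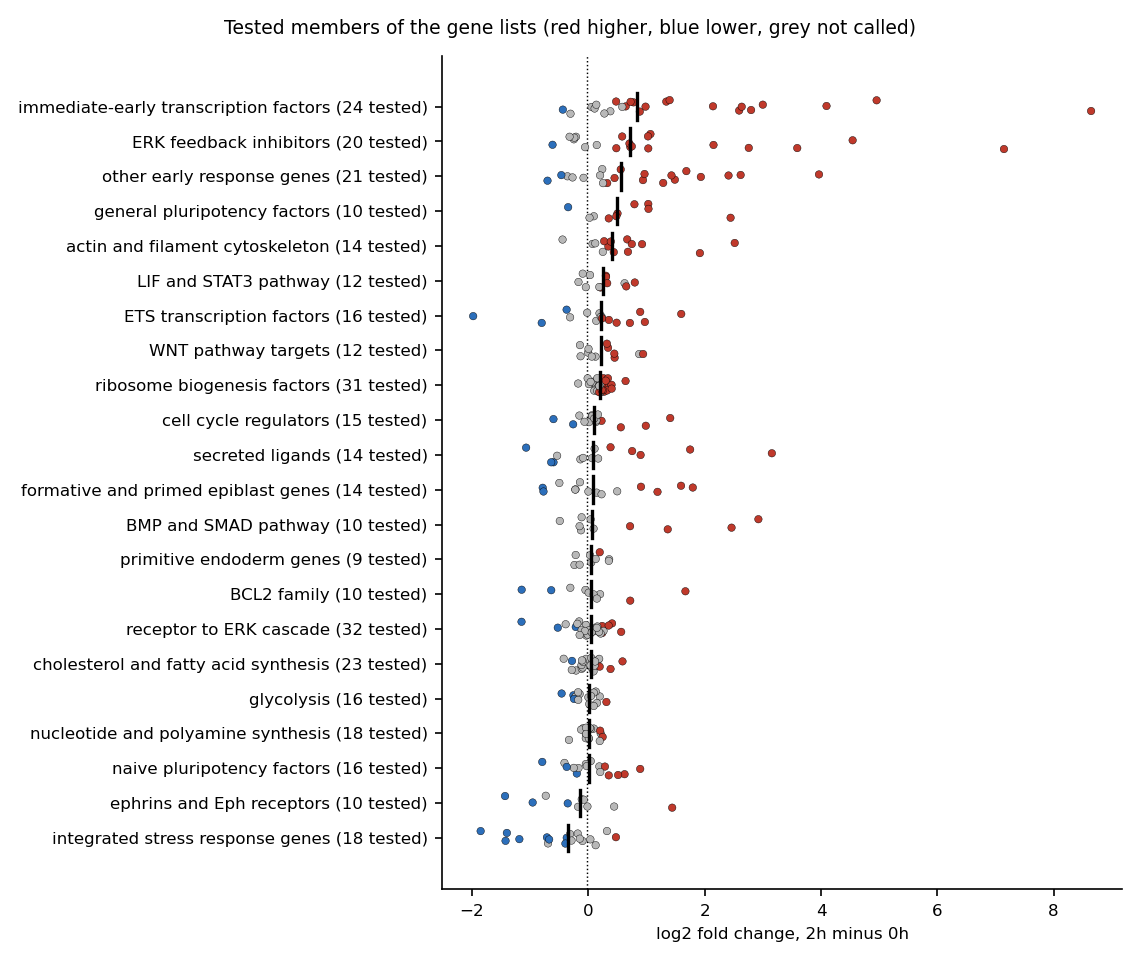
Log2FC of every tested member of the 22 functional lists (points; red higher, blue lower, grey not called), with the list median as a black bar and the median of all genes as a dotted line. Feedback inhibitors and immediate-early factors reach furthest to the right, and integrated stress response genes have the lowest median, -0.34.

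Scaling by library size alone lowered the list counts as it lowered the total, to 204 higher and 134 lower of the 12215 genes tested. The higher genes then numbered 8 of 20 feedback inhibitors, 12 of 24 immediate-early factors, 9 of 21 other early genes, 4 of 10 general pluripotency factors, 3 of 14 cytoskeletal genes, 0 of 31 ribosome biogenesis factors and 0 of 12 genes each of the LIF and WNT lists. The ETS list then held 2 higher genes, the ligand list 3, the naive list 1 and the relay and cholesterol lists 0, and the lower genes numbered 4 in the stress response list and 0 in the cholesterol list. Without the clone term, 747 of the 12215 genes tested were higher and 462 lower. The feedback list then held 11 higher genes, the immediate-early list 15, the ribosome biogenesis list 7, the LIF and naive lists 3 each, the relay and cell cycle lists 2 each, and the WNT and nucleotide lists 0. The lower genes then numbered 4 in the stress response list, 1 each in the naive and glycolysis lists and 0 in the cholesterol list.

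Exons of 30 of the genes named here and below overlap a gene on the opposite strand, among them Phlda1, Nefm, Nab2, Elf3, Rgma, Soga3, Rrad, Dusp1, Dusp5, Jun, Junb, Zfp36l1, Zfp36, Bmp4, Lin28a, Cdk6 and Zyx. Pnpla3, Soga3, Foxd3, Otx2, Ppan, Ube2d2a, mt-Nd1 and mt-Nd2 overlap a gene on their own strand. Counts of such pairs are uncertain to the extent that reads were shared.

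Markers of other cell types were low in both groups. Summed over each list of 6 to 8 genes, fibroblast markers gave 8.36 to 13 CPM at 0h and 6.57 to 10.5 CPM at 2h, with Dcn and Postn at 0 reads in all 8 libraries. Trophoblast markers gave 8.06 to 13.3 and 10.7 to 14.0 CPM, primitive endoderm markers 3.26 to 5.56 and 4.39 to 5.96 CPM, and neural markers 19.7 to 47.8 and 15.1 to 36.3 CPM. Mesoderm markers gave 3.74 to 5.52 CPM at 0h and 6.32 to 20.6 CPM at 2h, a sum that includes Evx1. Markers of a 2-cell-like state gave 2.67 to 5.82 and 5.70 to 8.32 CPM. Their part in the results above was not tested, and in such bulk samples fewer cells of a type cannot be told apart from less RNA per cell.

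The clones, which share no library, can be read against each other. In clone 4 alone 605 genes were higher (4.95%) and 286 lower (2.34%), and in clone 8 alone 1196 were higher (9.79%) and 956 lower (7.83%). Of the 605 genes higher in clone 4, 572 had a positive log2FC in clone 8 and 405 were higher there too, which is 66.9% of the clone 4 genes and 33.9% of the clone 8 genes. Of the 286 lower in clone 4, 273 had a negative log2FC in clone 8 and 150 were lower there, 52.4% of the clone 4 genes and 15.7% of the clone 8 genes. No gene was called in opposite directions in the 2 clones. The 605 genes chosen in clone 4 had a median log2FC of 0.70 in clone 4 and 0.52 in clone 8, and the 286 lower genes medians of -0.80 and -0.46. In the reverse direction, 1067 of the 1196 genes higher in clone 8 had a positive log2FC in clone 4, and 816 of the 956 lower a negative one. Over all tested genes the log2FC of the 2 clones correlated with r of 0.618. Clone 4 had 2 libraries per group, and 2h clone 4 replicate 2 was the shallowest. Leaving out 1 library leaves 1 group of a clone with a single library, which is then assumed to vary like the other groups. In clone 4, 261 genes were higher and 74 lower without 2h clone 4 replicate 1, 343 and 167 without 0h clone 4 replicate 2, and 380 and 139 without 0h clone 4 replicate 1, while 188 were lower without 2h clone 4 replicate 2. In clone 8, 676 were higher and 360 lower without 0h clone 8 replicate 2, and 666 and 412 without 2h clone 8 replicate 2.

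The size or sign of the response differed between clones for 11 genes (0.0901% of those tested) in a test of the difference itself, and for 1228 at an unadjusted p under 0.05. Id3, which blocks the binding of basic helix-loop-helix factors to DNA, had 0.815 and 1.64 CPM in clone 4 and 4.66 and 6.52 CPM in clone 8 at 0h. At 2h its 4 values were 30.3, 28.9, 29.3 and 30.5 CPM, so the clones differed before induction and met after it (log2FC 4.45 in clone 4 and 2.38 in clone 8, difference -2.08, SE 0.36, adjusted p = 0.018). The Id3 value of 0.815 CPM equals the floor of 3 counts in 0h clone 4 replicate 1, so the clone 4 log2FC and the difference rest on few 0h reads. Nefm had 4.89, 8.06, 12.5 and 13.1 CPM at 0h and 118, 105, 91.3 and 91.0 CPM at 2h (difference -1.21, adjusted p = 0.020). For Egr1 the clones were alike at 0h and apart at 2h (log2FC 4.69 in clone 4 and 3.65 in clone 8, difference -1.04, adjusted p = 0.023). Gbx2, a homeobox gene of naive cells, had 13.9, 14.0, 2.09 and 2.78 CPM at 0h and 6.34, 7.01, 4.31 and 3.55 CPM at 2h, a log2FC of -1.10 in clone 4 and 0.64 in clone 8 (difference 1.74, adjusted p = 0.024). Klf5 was at 144, 106, 95.2 and 94.6 CPM at 0h and 152, 130.5, 181 and 205 CPM at 2h (log2FC 0.21 in clone 4 and 1.02 in clone 8, difference 0.81, adjusted p = 0.024). Scarna2, a gene of small Cajal body RNA (difference -0.88) and Ube2d2a, a ubiquitin-conjugating enzyme (difference 1.12), completed the 5 smallest adjusted p, at 0.023 each. Under the same assumption for a group left with 1 library, the number of these genes was 1 without 2h clone 4 replicate 1, without 2h clone 8 replicate 2 or without 0h clone 8 replicate 2, 5 and 7 without 0h clone 4 replicate 1 and 2h clone 4 replicate 2, 22 without 2h clone 8 replicate 1, and 35 without 0h clone 4 replicate 2 or 0h clone 8 replicate 1.

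**Figure D4:**
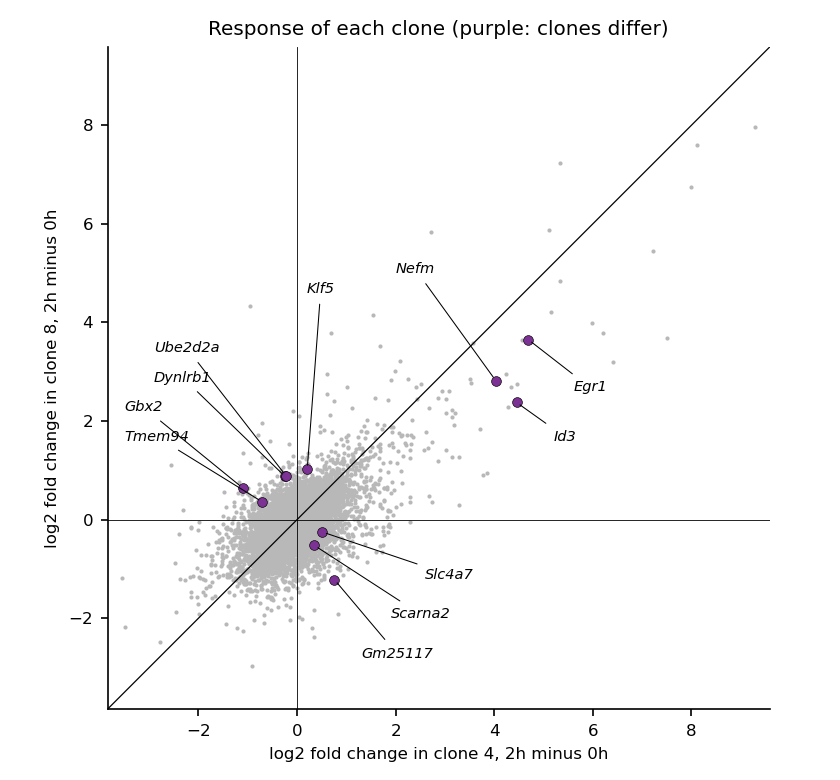
Log2FC of each tested gene in clone 4 (horizontal) and clone 8 (vertical), with the line of equal response and, in purple, the 11 genes whose response differed between clones. Egr1, Nefm and Id3 rose in both clones but less in clone 8, and Klf5 rose more in clone 8. Gbx2, Ube2d2a, Dynlrb1, Tmem94, Scarna2, Gm25117 and Slc4a7 lie in the quadrants of opposite signs.

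The genes that rose most were short. Among protein-coding genes, the 148 that rose at least 2-fold had a median span of 10.9 kb and 4 exons in their longest transcript model, against 25.3 kb and 10 exons for the 8918 not called. The 148 that fell at least 2-fold had a median span of 13.9 kb and 5 exons, while genes that changed by less than 2-fold had medians of 24.8 kb (higher) and 25.5 kb (lower). Genes with large changes were also low in level, and levels go with length. Within the lowest, middle and highest of 3 equal classes of mean level, the genes that rose at least 2-fold had median spans of 8.77, 9.73 and 17.9 kb, against 19.3, 24.0 and 33.1 kb for genes not called. For the genes that fell at least 2-fold the medians were 12.9 kb (131 genes), 25.1 kb (14 genes) and 15.4 kb (3 genes), so in the middle class they were no shorter than genes not called. These are descriptions over genes of the annotation, and no test was made. Among other gene types, 16 of 162 tested lincRNAs were higher (9.88%) and 19 lower (11.7%), and 0 of 35 snoRNA genes were higher and 4 lower (11.4%), shares that apart from the absent snoRNA increases lie near the 11.4% and 9.68% of all genes tested.

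**Figure D5:**
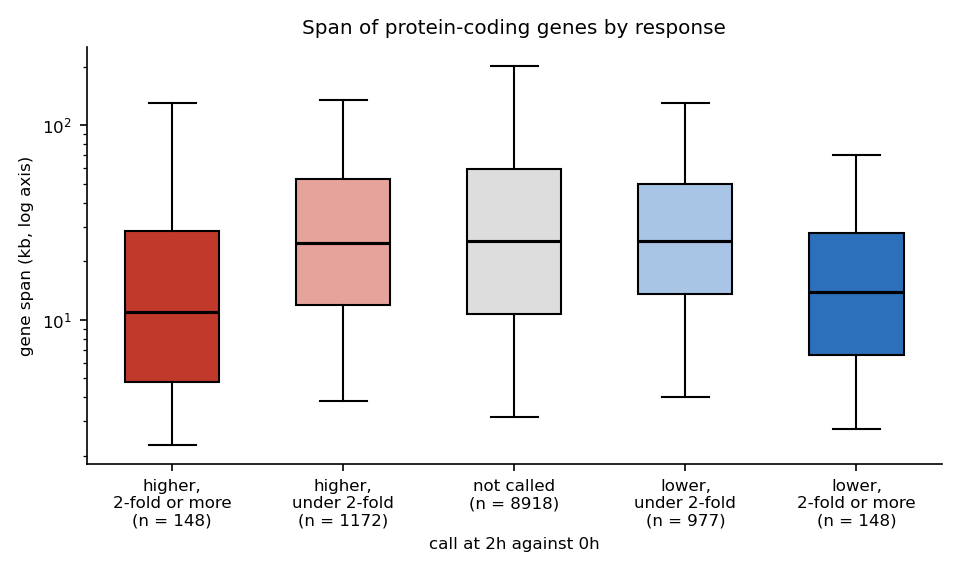
Span of protein-coding genes (kb, log axis) by call, with boxes from the lower to the upper quartile, a line at the median and whiskers from the 5th to the 95th percentile. The boxes of genes changed at least 2-fold, on both ends, sit below the other 3, with medians of 10.9 and 13.9 kb.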

How the data were processed

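RNA was depleted of ribosomal RNA and sequenced from 16 cultures, of which the 8 of 0h and 2h are reported. The deposited values are raw read counts per gene identifier, per the labels of the table and its whole numbers. The submitters' processing notes name bcl2fastq 2.19.1, STAR 2.5.3a and the build mm10. The counting tool, annotation and strand setting are not given in the sources used here. Identifiers were matched to GENCODE M21 (52489 of 52636, 147 unmatched). Genes with low counts were removed with filterByExpr over the 4 groups, counts were scaled with TMM factors, and edgeR 4.0.16 (R 4.3.3) fitted group and clone on all 16 libraries with its quasi-likelihood test. P-values were adjusted by Benjamini-Hochberg over the 12215 genes tested, with a threshold of 0.05. A model with a term per group and clone gave the values within clones and their difference.

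Named genes were the 15 higher and 15 lower with the largest log2FC among called genes with a mean of at least 5 CPM and no overlap within clones, the 5 each way with the largest CPM difference among called protein-coding genes, up to 3 per list and direction, any member of the pluripotency, relay and marker lists, and the 5 smallest adjusted p of the clone difference. The members and lists were chosen with earlier results of these data known. Libraries with the same replicate number in 0h and 2h deviated together only weakly, with r of 0.0936 in clone 4 and 0.188 in clone 8 over 6712 genes. Alternatives were RLE factors, library size alone, other filters, no clone term, a replicate block, only the 8 libraries, removal of the 8 most abundant models, a 2-fold threshold, DESeq2 1.42.0 and each library left out. Some members are not reported here.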

Additional observations from a re-analysis of the deposited data

Results flagged for a closer look

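In 7 of 234 groups of 4 libraries examined for the named genes (2.99%), 1 library stood apart from the other 3 by Dixon's criterion, which chance alone exceeds in about 1 of 20 groups. In 2h clone 4 replicate 2, the shallowest library, Phlda1 was at 17.5 CPM, Zfp773 at 4.38 CPM, Kcna1 at 2.63 CPM and Sesn2 at 59.1 CPM. In 0h clone 4 replicate 2, Actb was at 1049 CPM and Nr5a2 at 65.3 CPM. In 0h clone 4 replicate 1, Evx1os was at 0.272 CPM, while the other 0h libraries had no read.

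The response differed between clones, in the test of the difference itself, for 11 genes. The log2FC in clone 8 minus that in clone 4 was -2.08 for Id3, -1.98 for the snoRNA gene Gm25117, -1.21 for Nefm, -1.04 for Egr1, -0.88 for Scarna2 and -0.77 for Slc4a7, a bicarbonate transporter. It was 1.74 for Gbx2, 1.14 for Dynlrb1, a dynein light chain, 1.12 for Ube2d2a, 1.06 for Tmem94 and 0.81 for Klf5.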

How the results depend on the processing

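RLE factors gave 1389 higher and 1167 lower genes, DESeq2 1228 and 855, and the replicate block 1338 and 1137, with 93.5% of the calls made again. Beyond the counts given above for library size alone (204 and 134) and without the clone term (747 and 462), a threshold of 2-fold kept 179 and 166. Genes lower by at least 2-fold numbered 92 with library size alone and 267 with no filter on low counts. The clone difference was called for 3 genes with library size alone, 68 with no filter and 5 with only the 8 libraries. With library size alone, 129 genes were higher and 18 lower in clone 4, and 110 and 122 in clone 8. The cause of these differences was not tested.

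Leaving out 1 library gave 1070 to 1454 higher and 743 to 1203 lower genes, 175 to 198 higher and 138 to 221 lower by at least 2-fold, and 1 to 35 genes with a clone difference. Within clone 4 it gave 261 to 617 higher and 74 to 305 lower genes, and within clone 8 666 to 1227 and 360 to 960. Of 113 called genes named, 103 kept their call in all 8 of these fits. Of 1983 values for 117 named genes, 1863 kept direction and side of the threshold, 118 lost the call, and Esrrb passed without 0h clone 4 replicate 1 (adjusted p = 0.031, edgeR). Scarna2, not called, had a log2FC of -0.13, which ranged from -0.241 without 2h clone 4 replicate 2 to 0.0384 without 2h clone 8 replicate 2. Depth limits genes near the floor, where 3 counts equal up to 1.31 CPM.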
